A study of Mus musculus with 14 samples.

Results

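The cyclins and E2F factors examined here were 10 genes that drive or read out the cell cycle: the D-type cyclins Ccnd1, Ccnd2 and Ccnd3, the E-type cyclins Ccne1 and Ccne2, the A-type cyclin Ccna2, the B-type cyclins Ccnb1 and Ccnb2, and the transcription factors E2f1 and E2f8. They were taken by symbol, through the Ensembl identifiers of GENCODE vM21, from the 54524 genes of the count table. All 10 were among the 26626 genes with enough counts to be tested. Messenger RNA was measured in liver sinusoidal endothelial cells (LSECs), the fenestrated cells that line the capillaries of the liver, after a single intraperitoneal injection of carbon tetrachloride (CCl4), a solvent that kills hepatocytes once they have metabolized it. The mice were male Balb/c animals of 10 to 12 weeks by the labels, and the CCl4 was given in mineral oil at 0.5 µL per g body weight. Livers were taken 1 day (day 1, 2 samples), 3 days (day 3, 4 samples) or 7 days (day 7, 4 samples) later, and 4 samples came from healthy mice without an injection. The effect of CCl4 therefore cannot be told apart from that of oil and injection. LSECs were sorted as CD32+, F480-, UV- and PI- cells, by the methods also as CD45- cells, and lysed without culture, so that the gate was set against Kupffer cells, stellate cells, dead cells and leukocytes. The day 1 group is smaller because further samples of that group had RNA of low quality, and the sources do not state whether each sample was 1 mouse, so p-values measure the spread between these samples.

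Total counts ran from 46401496 to 103912264 per sample. Replicates 1 and 2 of day 3 had 34678 and 34768 genes detected by 1 count or more, replicates 3 and 4 had 28203 and 22986, and the samples of the other groups had between 27283 and 30735. The LSEC markers Stab2, Clec4g and Fcgr2b (which encodes CD32, used in the sort) were present in each sample, and the summed level of 10 LSEC markers was 16313 to 19678 CPM (counts per 1e+06 counts) in healthy samples. It was 12416 and 15178 CPM in the day 1 samples, 10504 to 14435 CPM in those of day 3 and 9796 to 14131 CPM in those of day 7. Single markers went both ways. By the edgeR test used below, 2 of the 10 were higher and 1 lower at day 1 than in healthy samples. At day 3, 1 was higher and 1 lower, and at day 7 none differed. Markers of other cells were present too, and their values are given with the day 3 results. For monocyte, neutrophil and stellate cell markers, day 1 and day 7 values are included there. In bulk RNA, fewer cells of a type and less RNA per cell cannot be told apart.

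Cyclins are the regulatory subunits of cyclin-dependent kinases (CDKs). D-type cyclins are induced by mitogens and start the phosphorylation of the retinoblastoma protein, which releases E2F factors. E2F factors then switch on E-type cyclins and the genes of DNA synthesis, A-type cyclins act from S phase onwards and B-type cyclins take the cell into mitosis. E2f1 is an activator and E2f8 an atypical repressor, itself induced by E2F, that dampens the same targets. Mature LSECs are mostly quiescent and can divide when the liver regenerates.

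Many genes of this family are switched through short promoter elements. E2F sites serve G1 and S phase genes, and a CCAAT box together with the cell cycle homology region (CHR) serves genes of G2 and mitosis. Promoter windows of RefSeq (GRCm38.p6), 250 bases before the start and 50 after it, were found for 6 of the 10 genes (Ccnd3, Ccne1, Ccnb1, Ccnb2, E2f1 and E2f8). The 250 upstream bases were searched on both strands for 4 E2F octamers (TTTCCCGC, TTTCGCGC, TTTGCCGC, TTTGGCGC), for the CHR letters TTTGAA and for CCAAT, none of which overlaps another by its letters. Of 32851 windows, 1.86% held one of the E2F octamers, 16% held TTTGAA and 33.8% held CCAAT. The 4 promoters shown belong to genes whose transcripts were higher at day 3 than in healthy LSECs, 1 for G1 to S phase, both B-type cyclins and the repressor E2f8. They are printed 5′ to 3′ on the strand of the gene, with matches in capitals and without bases that the annotation places in an exon.
Ccne1 promoter, chr7:38107535-38107740, minus strand: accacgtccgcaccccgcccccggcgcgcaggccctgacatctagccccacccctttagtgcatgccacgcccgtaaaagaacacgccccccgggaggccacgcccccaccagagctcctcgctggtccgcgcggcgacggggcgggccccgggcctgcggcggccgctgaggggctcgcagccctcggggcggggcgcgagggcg
Ccnb1 promoter, chr13:100786571-100786736, minus strand: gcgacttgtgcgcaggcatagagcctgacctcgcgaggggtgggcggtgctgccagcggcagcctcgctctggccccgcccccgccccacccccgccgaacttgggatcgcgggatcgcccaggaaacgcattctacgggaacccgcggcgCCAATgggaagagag
Ccnb2 promoter, chr9:70421555-70421804, minus strand: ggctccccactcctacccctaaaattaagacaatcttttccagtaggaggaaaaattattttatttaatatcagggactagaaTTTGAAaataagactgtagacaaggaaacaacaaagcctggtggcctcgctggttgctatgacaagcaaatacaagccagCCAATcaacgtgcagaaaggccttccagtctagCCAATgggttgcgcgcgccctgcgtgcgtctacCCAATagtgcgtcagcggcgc
E2f8 promoter, chr7:48881597-48881846, minus strand: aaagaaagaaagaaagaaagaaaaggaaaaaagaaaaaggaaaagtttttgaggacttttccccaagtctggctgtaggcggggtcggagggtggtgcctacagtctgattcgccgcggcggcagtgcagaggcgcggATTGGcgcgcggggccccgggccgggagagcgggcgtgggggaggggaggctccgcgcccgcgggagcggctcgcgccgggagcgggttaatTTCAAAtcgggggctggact
The Ccne1 stretch of 206 bases held none of the letters searched. The Ccnb1 stretch of 166 bases held 1 CCAAT, and a further one lay within its first annotated exon. Ccnb2 held 3 copies of CCAAT, at 87, 54 and 21 bases before the start, and TTTGAA at 167 bases before it, although this RefSeq start was not found among the GENCODE transcripts. E2f8 held CCAAT on the opposite strand (printed as ATTGG) at 112 bases and TTTGAA on the opposite strand (printed as TTCAAA) at 20 bases before the start. These matches are letters in a window and no binding was measured.

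At the level of messenger RNA per gene length (TPM, which scales the counts by the summed exon length and then to a fixed total), the D-type cyclins Ccnd2 and Ccnd1 stood above the other 8 genes in healthy LSECs. Ccnd2 was at 158 ± 15.9 TPM (SD, n = 4) and Ccnd1 at 83.7 ± 14.8 TPM, and their samples did not overlap. Ccnb2 (18.7 ± 9.18), Ccna2 (12.9 ± 4.82) and Ccnd3 (10.6 ± 8.51 TPM) followed with overlapping samples. Ccne2 (3.96 ± 0.584), E2f1 (3.93 ± 0.653), Ccnb1 (2.31 ± 0.930) and Ccne1 (1.87 ± 0.233 TPM) were lower, and neighbours in this order overlapped. E2f8, at 0.569 ± 0.167 TPM, was below each of the other 9 genes. TPM was used for comparisons between genes of one group. All comparisons between samples below use CPM after TMM normalization.

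Each of the 10 genes had its lowest group mean at day 1, and 8 had their highest at day 3. The exceptions were Ccnd2 and Ccnd3, whose highest mean was in healthy LSECs. Both day 1 samples were below all healthy samples for 5 genes (Ccnd1, Ccnd2, Ccne2, Ccnb2 and E2f8), where 17.9% of all genes tested were, and above them for 0, where 20% were. The median log2 fold change at day 1 was -0.87 over the 10 genes and -0.03 over all genes tested. The plot by sample shows this course for each gene, and shows how far apart the day 3 samples lay.

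**Figure D1:**
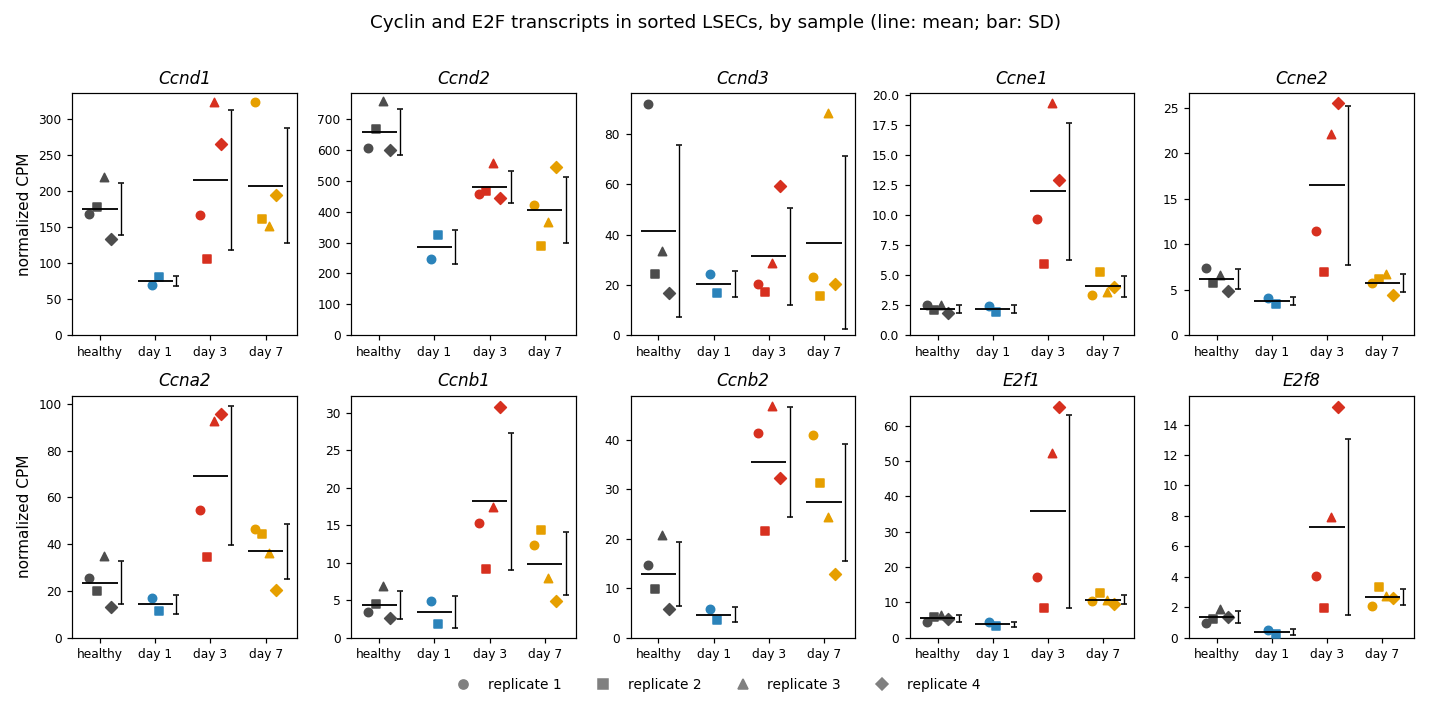
Normalized CPM (y axis, linear from 0) of each of the 10 genes in the 4 healthy, 2 day 1, 4 day 3 and 4 day 7 samples; symbols mark the replicate number, the horizontal line the group mean and the bar beside it the SD. Day 3 points of E2f1 run from 8.45 to 65.4 CPM, above the 4 healthy samples at 4.30 to 6.42 CPM.

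Of the D-type cyclins, which act first in G1, Ccnd2 fell at day 1, and no other difference of theirs passed the test. Ccnd2 (ENSMUSG00000000184, chr6:127125162-127152193, minus strand) stood at 607, 668, 759 and 601 CPM in healthy LSECs and at 246 and 325 CPM at day 1. Its day 3 samples were at 456, 467, 558 and 444 CPM and its day 7 samples at 421, 290, 367 and 545 CPM. Every injured sample was therefore below every healthy one. By edgeR's quasi-likelihood test with Benjamini-Hochberg adjustment over all genes tested, Ccnd2 fell at day 1, with a log2 fold change of -1.21 ± 0.25 (SE) and an adjusted p of 0.0163, which is 2.31-fold lower. It was the only one of the 10 genes called at day 1, where 4.06% of all genes were called, 2.42% higher and 1.64% lower. The call was lost without day 1 replicate 1 (log2 fold change -1.05, adjusted p = 0.374) and without day 1 replicate 2 (-1.44, adjusted p = 0.0720). At day 3 and day 7 the differences of Ccnd2 from healthy were -0.45 (adjusted p = 0.193) and -0.70 (adjusted p = 0.0700) on the log2 scale, and neither passed. The day 7 difference did pass with DESeq2 (adjusted p = 0.0197), with limma (adjusted p = 0.00743) and when only the healthy and day 7 samples were fitted (adjusted p = 0.0435).

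Ccnd1 (ENSMUSG00000070348, chr7:144929931-144939925, minus strand), the D-type cyclin most directly tied to mitogen signals, was at 168, 178, 220 and 134 CPM in healthy LSECs and at 69.96 and 80.3 CPM at day 1. At day 3 it was at 166, 105, 323 and 265 CPM, and at day 7 at 323, 161, 151 and 194 CPM. Both day 1 samples lay below all healthy samples, while the day 3 and day 7 samples overlapped them. The day 1 difference of -1.22 ± 0.42 on the log2 scale did not pass (adjusted p = 0.136), and those at day 3 (0.30, adjusted p = 0.646) and day 7 (0.25, adjusted p = 0.713) were within the spread. The day 1 difference passed with DESeq2 (adjusted p = 0.0463), with limma (adjusted p = 0.00441) and when only the healthy and day 1 samples were fitted (adjusted p = 0.0176). It did not pass with other scalings or filters or with the replicate block.

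Ccnd3 (ENSMUSG00000034165, chr17:47505051-47599691, plus strand) varied more within groups than between them. It was at 91.9, 24.3, 33.5 and 16.6 CPM in healthy LSECs and at 24.2 and 16.7 CPM at day 1. The day 3 samples had 20.3, 17.2, 28.7 and 59.4 CPM, and the day 7 samples 23.2, 15.6, 88.2 and 20.3 CPM. Single samples were high in 3 groups, namely healthy replicate 1, day 3 replicate 4 and day 7 replicate 3. No comparison of Ccnd3 passed the test, with adjusted p values of 0.580 at day 1, 0.752 at day 3 and 0.907 at day 7 against healthy by edgeR.

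The E-type cyclins, which bind CDK2 at the passage from G1 to S phase, were higher at day 3. Ccne1 (ENSMUSG00000002068, chr7:38097984-38107534, minus strand) was at 2.49, 2.06, 2.47 and 1.80 CPM in healthy LSECs and at 2.42 and 1.94 CPM at day 1. It reached 9.69, 5.92, 19.3 and 12.95 CPM at day 3 and was at 3.37, 5.24, 3.57 and 4.01 CPM at day 7. All day 3 samples were above every sample of the other 3 groups. Ccne1 rose 5.43-fold from healthy to day 3 (log2 fold change 2.44 ± 0.34, adjusted p = 0.00200) and fell from day 3 to day 7 by 1.56 ± 0.33 on the log2 scale (adjusted p = 0.0323). Its day 7 samples all lay above the healthy ones, but the difference of 0.88 ± 0.32 did not pass (adjusted p = 0.146).

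Ccne2 (ENSMUSG00000028212, chr4:11191351-11204779, plus strand), the second E-type cyclin, was at 7.39, 5.70, 6.58 and 4.89 CPM in healthy LSECs and at 4.04 and 3.43 CPM at day 1. The day 3 values were 11.5, 6.89, 22.1 and 25.5 CPM, and those of day 7 were 5.77, 6.22, 6.68 and 4.36 CPM. Replicate 2 of day 3 lay within the healthy range and the other 3 above it. Ccne2 rose 2.69-fold from healthy to day 3 (log2 fold change 1.43 ± 0.35, adjusted p = 0.0271) and fell from day 3 to day 7 by 1.52 ± 0.35 on the log2 scale (adjusted p = 0.0464), to a level that differed from healthy by -0.09 ± 0.35 (adjusted p = 0.911).

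Ccna2 (ENSMUSG00000027715, chr3:36564865-36572150, minus strand), which serves S phase and the entry into mitosis, was at 25.4, 20.0, 35.1 and 13.3 CPM in healthy LSECs and at 16.9 and 11.4 CPM at day 1. It was at 54.5, 34.5, 92.6 and 95.7 CPM at day 3 and at 46.4, 44.5, 36.2 and 20.6 CPM at day 7. Day 3 replicate 2 lay just below the highest healthy sample. Ccna2 rose 2.96-fold at day 3 (log2 fold change 1.56 ± 0.38, adjusted p = 0.0248). At day 7 it differed from healthy by 0.66 ± 0.37 (adjusted p = 0.324) and from day 3 by -0.91 ± 0.37 (adjusted p = 0.217), so neither step passed.

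The B-type cyclins, partners of CDK1 in mitosis, were higher at day 3 with no overlap with healthy samples. Ccnb1 (ENSMUSG00000041431, chr13:100778650-100786570, minus strand) was at 3.47, 4.43, 6.82 and 2.60 CPM in healthy LSECs and at 4.92 and 1.86 CPM at day 1. The day 3 samples had 15.3, 9.15, 17.5 and 30.8 CPM, and the day 7 samples 12.3, 14.3, 8.004 and 4.87 CPM. It rose 4.20-fold at day 3 (log2 fold change 2.07 ± 0.47, adjusted p = 0.0188). At day 7, 3 of 4 samples were above all healthy ones, and the difference of 1.19 ± 0.46 did not pass (adjusted p = 0.160).

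Ccnb2 (ENSMUSG00000032218, chr9:70407692-70421547, minus strand) was at 14.6, 9.92, 20.8 and 5.80 CPM in healthy LSECs and at 5.69 and 3.57 CPM at day 1. The day 3 samples had 41.4, 21.5, 46.7 and 32.3 CPM, and the day 7 samples 40.9, 31.3, 24.3 and 12.9 CPM. It rose 2.77-fold at day 3 (log2 fold change 1.47 ± 0.42, adjusted p = 0.0486), close to the threshold. Its step from day 3 to day 7 was the smallest of the 7 genes that rose at day 3, at -0.38 ± 0.41 on the log2 scale (adjusted p = 0.673). Against healthy, the day 7 difference was 1.09 ± 0.41 (adjusted p = 0.152).

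The E2F factors were both higher at day 3, with a wide spread between samples. E2f1 (ENSMUSG00000027490, chr2:154559407-154569892, minus strand) was at 4.30, 5.89, 6.42 and 5.29 CPM in healthy LSECs and at 4.32 and 3.19 CPM at day 1. The day 3 samples had 17.1, 8.45, 52.2 and 65.4 CPM, and the day 7 samples 10.5, 12.5, 10.6 and 9.43 CPM. All day 3 and all day 7 samples were above all healthy ones. E2f1 rose 6.54-fold at day 3 (log2 fold change 2.71 ± 0.50, adjusted p = 0.00724), and its day 7 difference of 0.98 ± 0.47 did not pass (adjusted p = 0.253). The step from day 3 to day 7, -1.73 ± 0.48 on the log2 scale, had an adjusted p of 0.0926.

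E2f8 (ENSMUSG00000046179, chr7:48866429-48881596, minus strand) was at 0.948, 1.26, 1.89 and 1.36 CPM in healthy LSECs and at 0.502 and 0.209 CPM at day 1, from counts as low as 19. It was at 4.05, 1.97, 7.93 and 15.2 CPM at day 3 and at 2.06, 3.30, 2.73 and 2.58 CPM at day 7. Its samples were ordered by group without overlap from day 1 to healthy, and from healthy to both day 3 and day 7. E2f8 rose 5.33-fold from healthy to day 3 (log2 fold change 2.41 ± 0.53, adjusted p = 0.0168). From day 1 to day 3 it rose 20.4-fold (4.35 ± 0.79, adjusted p = 0.0139). By edgeR its differences from healthy at day 1 (-1.94, adjusted p = 0.150) and day 7 (0.97, adjusted p = 0.296) did not pass. Nor did its step from day 3 to day 7 (-1.45, adjusted p = 0.178).

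**Figure D2:**
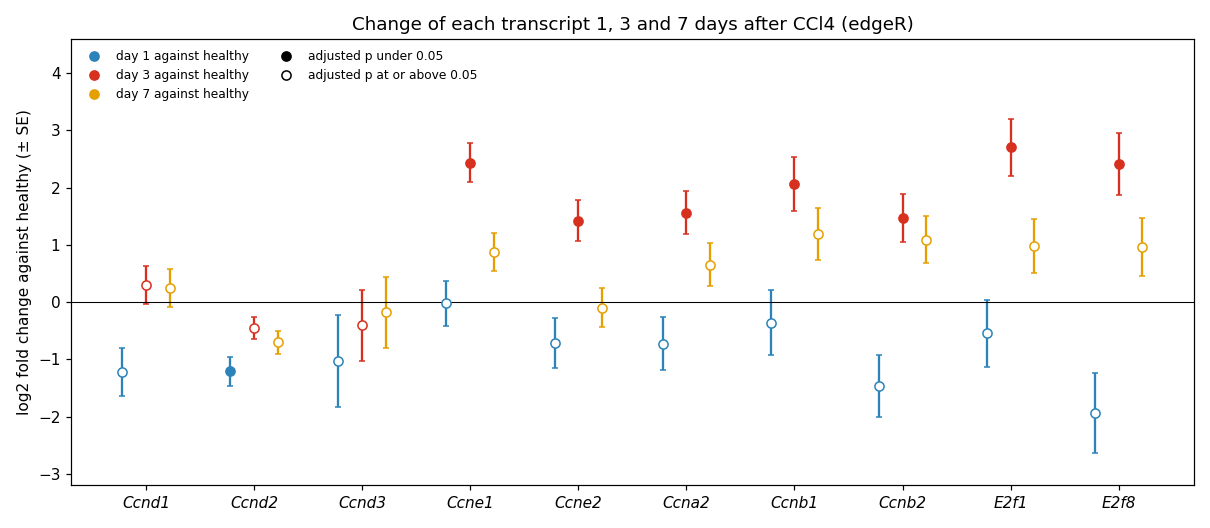
Log2 fold change against healthy LSECs (y axis; bars are the SE) of each gene at day 1, day 3 and day 7, by edgeR over all 14 samples; filled points had an adjusted p under 0.05 over all genes tested. The 7 filled day 3 points run from 1.43 for Ccne2 to 2.71 for E2f1, the filled day 1 point is Ccnd2, and no day 7 point is filled.

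Counted over the family, 7 of 10 genes were called higher and 0 lower at day 3 against healthy, where 7.19% of all genes tested were called, 4.62% higher and 2.58% lower. The genes called were Ccne1, Ccne2, Ccna2, Ccnb1, Ccnb2, E2f1 and E2f8, which is every member outside the D-type cyclins. The median log2 fold change of the 10 genes was 1.52, against 0.18 over all genes tested. The samples did not overlap for 5 genes in the higher direction, where this was so for 7.53% of all genes, and for Ccnd2 in the lower direction, where it was so for 6.84%. Ccne1 and E2f1 kept their call in all 18 alternative analyses, with log2 fold changes of 1.70 to 2.85 and of 1.09 to 3.40. The other 5 calls were lost without some single samples, with log2 fold changes that kept their direction. The number of genes called was 2 without healthy replicate 1, 2 or 4, 4 without day 3 replicate 3 or 4, 6 without healthy replicate 3 or day 3 replicate 1, and 7 without day 3 replicate 2. Without healthy replicate 1 the values of these 5 genes were close to or above those given, at 1.53 for Ccne2, 1.60 for Ccna2, 1.98 for Ccnb1, 1.54 for Ccnb2 and 2.27 for E2f8, with adjusted p of 0.0555 to 0.0973 by edgeR.

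The day 3 samples fell into a higher and a lower pair. Replicates 3 and 4 were both above replicates 1 and 2 for 8 of the 10 genes, all but Ccnd2 and Ccnb2, and replicate 2 was the lowest day 3 sample for 9. Relative to the healthy mean, E2f1 was at 3.12-fold and 1.54-fold in replicates 1 and 2 and at 9.53-fold and 11.9-fold in replicates 3 and 4. Ccnb2 differed less, at 3.24-fold, 1.68-fold, 3.65-fold and 2.52-fold in replicates 1 to 4. With replicates 1 and 2 left out, an analysis chosen after the values were seen, 6 of the 10 genes were called and E2f1 changed by 3.40 on the log2 scale. Over all genes tested, 2417 were called in that fit, against 1915 in the main one. With replicates 3 and 4 left out, Ccne1 (1.70) and E2f1 (1.09) remained the only members called, 2 of 10, where 6245 genes were called in all. Ccne2 (0.46), Ccna2 (0.80), Ccnb1 (1.37), Ccnb2 (1.18) and E2f8 (1.01) did not pass.

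**Figure D3:**
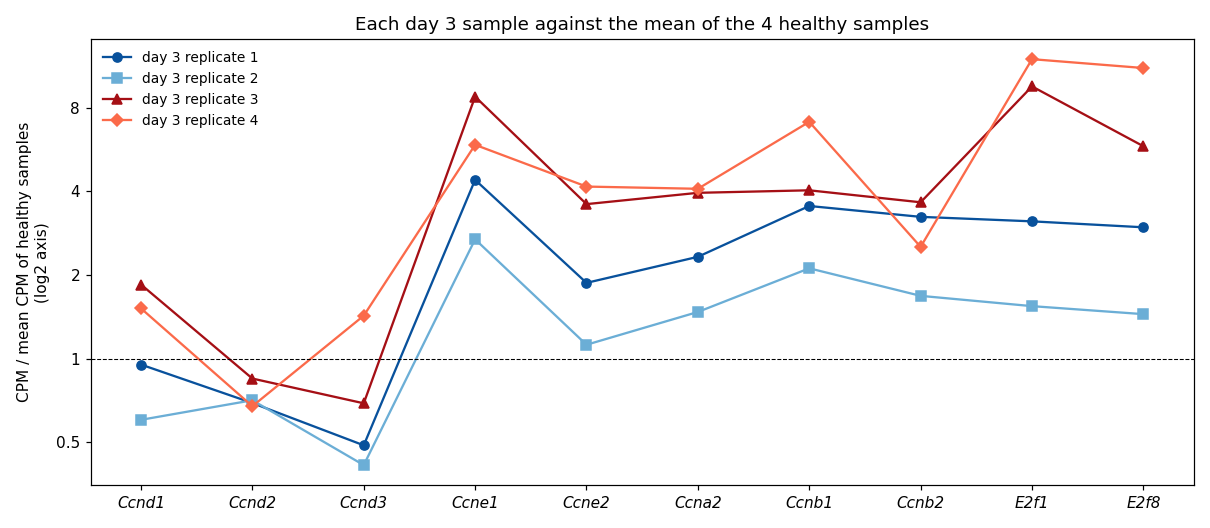
CPM of each gene in each day 3 sample divided by the mean of the 4 healthy samples (y axis, log2 scale); a line joins the values of 1 sample and the dashed line marks the healthy mean. Replicates 3 and 4 reach 9.53-fold and 11.9-fold for E2f1, while replicate 2 stays at 1.54-fold.

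Other measures differed between the same pairs of day 3 samples. The summed CPM of 10 monocyte and neutrophil markers was 13230 and 8049 in replicates 1 and 2 and 1496 and 1384 in replicates 3 and 4, against 521 to 1415 in healthy samples. In this list 4 of 10 markers were called higher at day 3 and none lower. Its sum was 8450 and 4424 CPM in the day 1 samples, with 4 of 10 called higher, where 2.42% of all genes were. It was 4198 to 9686 CPM in the day 7 samples, with 1 of 10 called higher, where 2.19% of all genes were. None of the list was called lower at either time. Kupffer cell and macrophage markers summed to 2103 and 1905 CPM in replicates 1 and 2 and to 814 and 836 CPM in replicates 3 and 4, within the healthy range of 296 to 1964 CPM for all but replicate 1, and 1 of 10 was called higher. The LSEC markers summed to 10504 and 11652 CPM in replicates 1 and 2 and to 13131 and 14435 CPM in replicates 3 and 4. Between the pairs, the samples with more leukocyte marker RNA thus had lower levels of 8 of the 10 genes. Within the lower pair, replicate 1 had the larger sums of both leukocyte lists, and replicate 2 was the lowest for 9 genes. Other lists split the same pairs. In replicates 1 to 4, cholangiocyte markers summed to 1008, 1178, 321 and 359 CPM and erythroid markers to 21.1, 20.9, 35.1 and 41.5 CPM. The part of leukocytes or of these other cells in the results was not tested.

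Markers of stellate cells and myofibroblasts, cells that can also divide after CCl4, moved with the groups. They summed to 150 to 273 CPM in healthy samples, 108 to 130 CPM at day 1, 832 to 2620 CPM at day 3 and 456 to 7471 CPM at day 7, and 9 of 10 were called higher at both day 3 and day 7. Among the day 3 samples, replicate 4 had the highest sum (2620 CPM) and also the highest Ccnd3, Ccne2, Ccna2, Ccnb1, E2f1 and E2f8, while replicate 3 had the lowest sum (832 CPM) and the highest Ccnd1, Ccnd2, Ccne1 and Ccnb2. Hepatocyte markers summed to 296, 226, 430 and 9877 CPM in healthy replicates 1 to 4 and to 1010 to 3479 CPM at day 3. All day 3 samples were thus above each healthy sample but replicate 4, and none of 10 markers was called. Cholangiocyte markers were at 79.2 to 193 CPM in healthy samples and 321 to 1178 CPM at day 3, with 1 of 5 called higher. Lymphocyte (27.5 to 270 CPM at day 3) and erythroid markers (20.9 to 41.5 CPM at day 3) had no call at day 3. No list was at 0, and the part of these cells in the levels of cyclins and E2F factors was not tested.

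From day 1 to day 3, 6 of the 10 genes were called higher (Ccne1, Ccne2, Ccna2, Ccnb2, E2f1 and E2f8) and 0 lower, where 2.54% of all genes tested were called, 1.57% higher and 0.969% lower. All day 3 samples were above both day 1 samples for 9 of 10 genes, Ccnd3 being the exception, where 11.4% of all genes showed this. The median log2 fold change was 2.36 over the 10 genes and 0.19 over all genes tested. The largest steps were those of E2f8 (4.35), E2f1 (3.25 ± 0.68, adjusted p = 0.0243) and Ccnb2 (2.94 ± 0.58, adjusted p = 0.0196). Ccnd1 (1.52 ± 0.43, adjusted p = 0.0862) and Ccnb1 (2.42 ± 0.63, adjusted p = 0.0609) missed the threshold. Without day 1 replicate 1, the 6 genes had log2 fold changes from 2.23 (Ccne2) to 5.09 (E2f8). Without day 1 replicate 2, they had 1.98 (Ccna2) to 3.82 (E2f8). Each of these fits leaves 1 day 1 sample, too few to judge a call. Without day 3 replicate 3, 3 of the 10 genes were called, where 481 genes were called in all.

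At day 7, no member was called against healthy by edgeR, where 3.18% of all genes were called, 2.19% higher and 0.992% lower. At an unadjusted p under 0.05 there were 4 members (Ccnd2, Ccne1, Ccnb1 and Ccnb2), where 21.1% of all genes reached it. The adjusted test called 1 member with DESeq2, where 2602 genes were called in all, and 2 with limma, where 7047 were. The median log2 fold change of the 10 genes was 0.77, against 0.02 over all genes tested. Ccne1, E2f1 and E2f8 were above healthy in 4 of 4 samples, where 8.72% of all genes were, and Ccnd2 was below in 4 of 4, where 12.1% were.

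From day 3 to day 7, 2 of the 10 genes, Ccne1 and Ccne2, were called lower and 0 higher, where 1.77% of all genes tested were called, 1.36% lower and 0.413% higher. These were also the 2 genes whose samples did not overlap, as was so for 4.15% of all genes. The median log2 fold change was -0.89 over the 10 genes and -0.10 over all genes tested. Of the 7 genes raised at day 3, the G1 to S phase genes E2f1 (-1.73), Ccne1 (-1.56) and Ccne2 (-1.52) had the largest steps down. The A-type and B-type cyclins Ccna2 (-0.91), Ccnb1 (-0.88) and Ccnb2 (-0.38) had the smallest, and E2f8 (-1.45) stood between. Pairs of these cyclins were compared within samples, as given below, but the order as a whole was not tested. It changed with the analysis. With limma E2f1 stood at -0.42 and E2f8 at -0.23, smaller steps than those of Ccna2 (-0.56), Ccnb1 (-0.65) and Ccnb2 (-0.49), and without day 3 replicates 3 and 4 E2f1 stood at -0.11, Ccna2 at -0.13 and Ccnb1 at -0.17. Without any one of day 3 replicates 1 and 3 or of the 4 day 7 samples, neither gene was called, without day 3 replicate 4 only Ccne1 was, and without day 3 replicate 2 there were 3.

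Whether later cyclins moved apart from earlier ones was examined within each sample, as the difference of log2 CPM (prior count 2) between a later and an earlier cyclin. Ccne1 minus Ccnd1 had a mean of -6.29 ± 0.19 (SD over the 4 healthy samples). The mean was -5.10 ± 0.36 over the 2 day 1 samples and -4.17 ± 0.13 over the 4 day 3 samples, and stood at -5.62 ± 0.69 over those of day 7. The shift toward Ccne1 at day 3 was 2.12, and the shift back at day 7 was -1.46. In both, the groups did not overlap, and each had a two-sided exact permutation p of 0.0286, the smallest that 4 against 4 samples allow, and an adjusted p of 0.171 over 12 tests. The day 3 samples, which differed widely in the level of each gene, lay between -4.35 and -4.06 in this difference.

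At day 7 Ccne1 minus Ccnd1 was 0.66 above healthy (exact permutation p = 0.143, adjusted p = 0.245). Ccna2 minus Ccne1 went from 3.32 ± 0.39 in healthy LSECs to 2.54 ± 0.26 at day 3 (exact p = 0.0571, adjusted p = 0.171) and 3.14 ± 0.59 at day 7. Ccnb1 minus Ccne1 was 0.89 ± 0.47 in the healthy group, 0.60 ± 0.57 at day 3 and 1.19 ± 0.67 at day 7, within the spread between samples. Ccnb2 minus Ccne2 was 0.92 ± 0.58 in the healthy group, 1.23 ± 0.67 at day 3 and 2.14 ± 0.55 at day 7, a day 7 difference of 1.22 with an exact p of 0.0571 and an adjusted p of 0.171. From day 3 to day 7, Ccna2 minus Ccne1 shifted by 0.59 and Ccnb2 minus Ccne2 by 0.91 (exact p = 0.114, adjusted p = 0.229 for each). Ccnb1 minus Ccne1 shifted by 0.59 (exact p = 0.257, adjusted p = 0.386). None of the 12 tests passed after adjustment. With a smallest possible p of 0.0286, 1 test alone could not pass over 12, so this cannot decide whether the cyclins moved apart. Day 1, with 2 samples, was not tested because its smallest possible p is 0.0667.

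**Figure D4:**
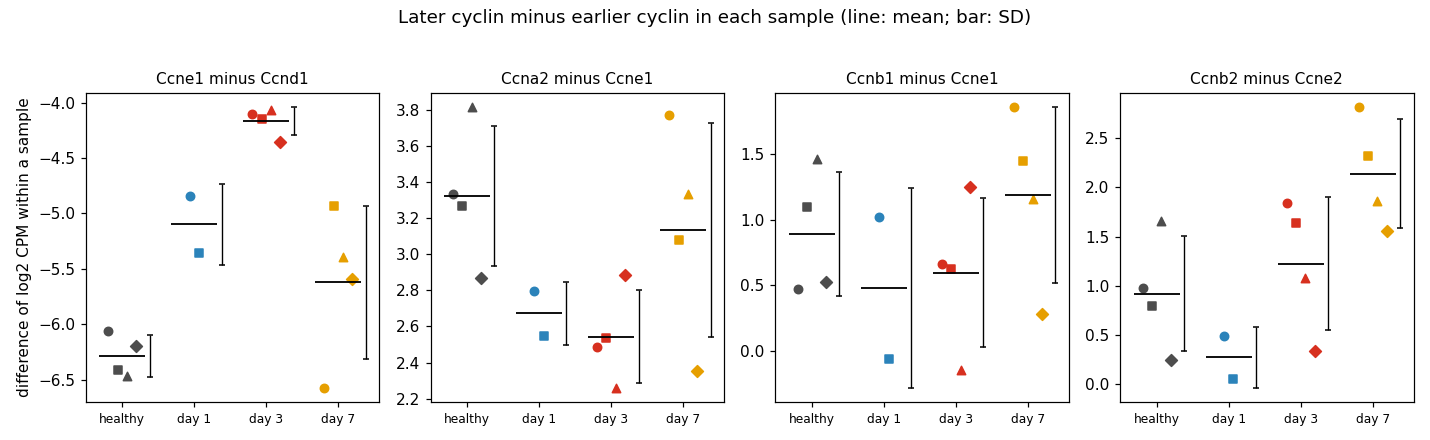
Difference of log2 CPM between a later and an earlier cyclin in each sample (y axis), by group, with replicate symbols as in the plot by sample, the mean as a line and the SD as a bar. Ccne1 minus Ccnd1 lies between -4.35 and -4.06 in the day 3 samples, above all healthy samples, and Ccnb2 minus Ccne2 has its highest mean, 2.14, at day 7.

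The genes around the cyclins were read from lists of cell cycle genes. Of 15 E2F target genes of DNA synthesis, 11 were called higher and 0 lower at day 3 against healthy, with a median log2 fold change of 1.73. Cdc6, a loading factor of the replicative helicase, went from 2.28 to 16.6 CPM (2.86 ± 0.56, adjusted p = 0.00909), and Rrm2, a subunit of ribonucleotide reductase, from 9.05 to 49.7 CPM (2.46 ± 0.46, adjusted p = 0.00773). The helicase subunit Mcm6 (2.34) and thymidine kinase Tk1 (2.23) rose as well. From day 3 to day 7, 10 of the 15 were called lower, with a median of -1.39, and at day 7 none differed from healthy by the test.

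Of 11 late cell cycle genes, 8 were called higher and 1 lower at day 3, with a median of 2.09. Mybl2, a transcription factor that acts with the CHR-binding complex, went from 2.11 to 16.2 CPM (2.94 ± 0.57, adjusted p = 0.00881). Foxm1, the transcription factor of mitotic genes, went from 3.40 to 18.9 CPM (2.48 ± 0.65, adjusted p = 0.0355), Plk1, a mitotic kinase, rose by 2.38 and Mki67, which encodes the Ki67 antigen, by 2.23 on the log2 scale. The gene called lower, named after its values were seen, was Cenpa, the histone variant of centromeres, which fell by 1.30 ± 0.19 on the log2 scale from 113 to 45.8 CPM (adjusted p = 0.00268). It was lower at day 1 too (-2.52), and rose from day 3 to day 7 (1.07). No other late gene was called from day 3 to day 7, where the list's median was -0.93, nor at day 7 against healthy, where it was 1.19.

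Among 10 CDKs and their activators, 5 were called higher and 0 lower at day 3. Cdk1, the partner of B-type cyclins, went from 29.0 to 117 CPM (2.01 ± 0.28, adjusted p = 0.00200), and Cdk6, a partner of D-type cyclins, from 15.9 to 47.2 CPM (1.57 ± 0.19, adjusted p = 0.00125). Cdk6 was the only gene of the list called at day 7 against healthy (1.16 ± 0.19, adjusted p = 0.00832), while Cdk1 fell from day 3 to day 7 by 1.46 ± 0.28 on the log2 scale (adjusted p = 0.0206). Cdk2 (-0.09, adjusted p = 0.916) and Cdk4 (0.04, adjusted p = 0.923), the partners of E-type and D-type cyclins, were within the spread at day 3. The CDK subunits Cks1b (2.30) and Cks2 (1.59) and the phosphatase Cdc25c (2.22) were the other calls.

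Of 9 CDK inhibitors and inhibitory kinases, 2 were called higher and 1 lower at day 3. The kinases Pkmyt1 (2.05 ± 0.52, adjusted p = 0.0303) and Wee1 (1.44 ± 0.40, adjusted p = 0.0450), which hold CDK1 inactive, rose. Cdkn1c, which encodes the inhibitor p57, stood at 49.2 CPM in healthy LSECs, 6.60 CPM at day 1 (-2.90 ± 0.32, adjusted p = 3.14e-04) and 10.35 CPM at day 3 (-2.25 ± 0.23, adjusted p = 6.07e-04), and rose again from day 3 to day 7 (1.77 ± 0.23, adjusted p = 0.00714) to 35.4 CPM. Cdkn1a, which encodes the inhibitor p21, was at 309 CPM in healthy LSECs and 723 CPM at day 1, where both samples were above all healthy ones but the difference of 1.22 ± 0.36 did not pass (adjusted p = 0.0773). It was at 373 CPM at day 3 (adjusted p = 0.658).

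Of 10 genes of cyclin degradation, 3 were called higher and 0 lower at day 3: Ube2c (2.00) and Cdc20 (1.56) of the anaphase-promoting complex pathway, and its inhibitor Fbxo5 (1.57). Of 11 other E2F, DP and pocket protein genes, 2 were called higher and 0 lower. These were Tfdp1, the DNA-binding partner of E2F factors (1.39 ± 0.33, adjusted p = 0.0247), and Rbl1, which encodes the pocket protein p107 (0.89 ± 0.17, adjusted p = 0.00764). E2f7, the other atypical repressor, was at 17.9 CPM in healthy LSECs and 34.2 CPM at day 3 (0.93 ± 0.43, adjusted p = 0.222), and Rb1 at 49.1 and 35.7 CPM (-0.46, adjusted p = 0.268). Of 14 other cyclin genes tested of 16, Ccnf, of which the protein is part of a ubiquitin ligase, was called higher (1.87), and Ccng1 (-0.57) and Ccng2 (-0.81), which are not drivers of the cycle, lower. These lists were chosen with earlier results of these data known, so their counts are a description.

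**Figure D5:**
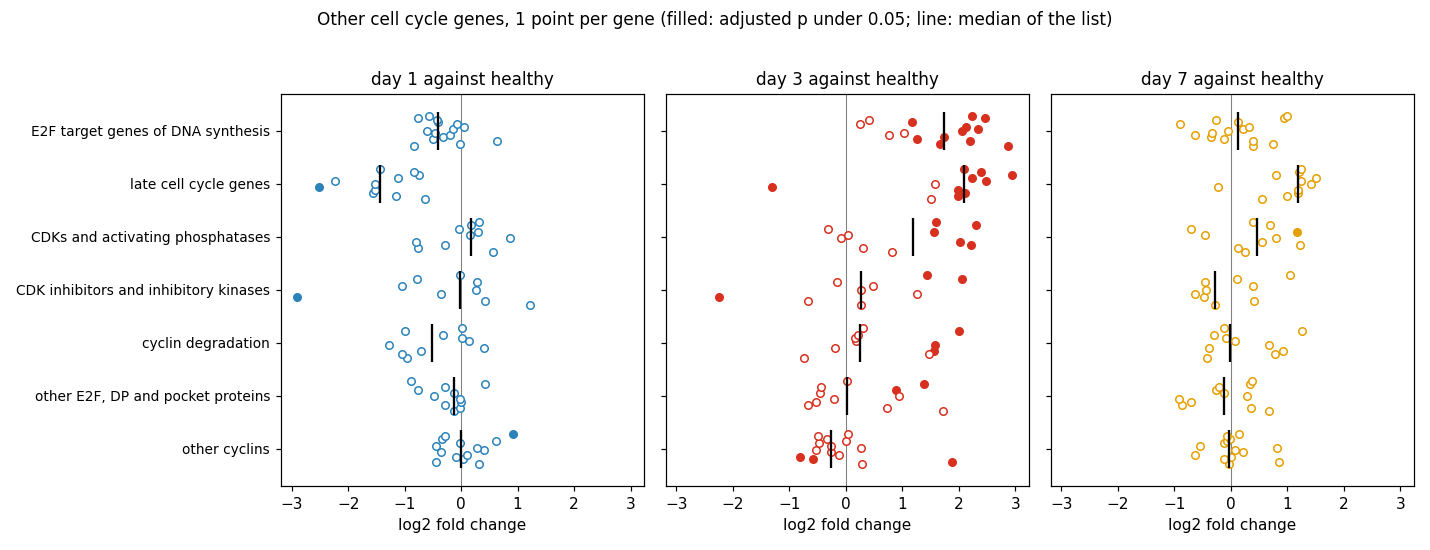
Log2 fold change against healthy (x axis) of the genes of 7 lists at day 1, day 3 and day 7, 1 point per gene tested; filled points had an adjusted p under 0.05 by edgeR and the vertical line is the median of the list. At day 3 the medians of the DNA synthesis and late cell cycle lists stand at 1.73 and 2.09, and at day 7 at 0.12 and 1.19.

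The transcripts with the most similar course over the 14 samples were found by Pearson correlation of log2 CPM among 11631 genes with a mean of at least 5 CPM. For Ccne1 these were 2700099C18Rik, Plk4 and Hells (r = 0.962, 0.952 and 0.951), and for E2f1 they were Dtl, Mybl2 and Ccnf (0.988, 0.984 and 0.976). For Ccna2 they were Cep55, Rrm2 and Cdca8 (0.989, 0.988 and 0.987), and for Ccnb1 Dlgap5 and Anln are given (0.973 and 0.971). For Ccnd1 the highest values were lower, with Kif4, Tmem35a and Add1 at 0.914, 0.914 and 0.907. The points share libraries and fall into the 4 groups, so these values describe the likeness of course and no more. Among the members, Ccna2 and Ccnb1 had an r of 0.956, Ccne1 and E2f1 of 0.930, and Ccnd2 and Ccne1 of -0.03.

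Counting could mix reads of some members with those of other genes. The pseudogene Ccnb1-ps held 2.08% to 5.51% of the counts of Ccnb1 and the copy together, Ccnb2-ps 0.506% to 5.81% and Ccnd3-ps 0% to 1.76%. Exons of Ccnd1, Ccnd2, Ccnd3, Ccne2, Ccna2 and E2f8 overlap exons of LTO1, Gm43126 and 9330179D12Rik, Bysl, Ints8, Exosc9 and Gm2788 on the other strand, and the use of strand in counting is not stated. Reads of these pairs cannot be told apart there, although none of the overlapping genes was called in any of the 5 comparisons. In healthy samples Gm2788 (2.37 CPM), Ints8 (40.3 CPM) and Exosc9 (27.3 CPM) stood above E2f8 (1.37 CPM), Ccne2 (6.14 CPM) and Ccna2 (23.4 CPM). The other overlapping genes stood below their members. At day 1 Gm2788 differed from healthy by -2.01 on the log2 scale and E2f8 by -1.94. At day 3 Gm2788 differed by -0.60 and Ints8 by -0.69, while E2f8 and Ccne2 rose. Ccne1, Ccnb1, Ccnb2 and E2f1 had no overlapping gene.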

How the data were processed

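The 10 members and the gene lists were chosen with earlier results of these data known. Sequencing of 14 libraries of sorted LSECs (4 healthy, 2 day 1, 4 day 3, 4 day 7) was processed by the authors with FastQC, AfterQC, STAR (genome GRCm38) and StringTie. The deposited values are unnormalized read counts, whole numbers, for each Ensembl gene. Annotation release, use of strand and the step from StringTie to counts are not given in the sources used here, and the age range in the methods differs from that in the labels. Identifiers were named through GENCODE vM21, which held 54495 of 54524 genes, of which 9902 had no count.

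Counts were filtered with filterByExpr (minimum count 10, minimum total 15), normalized by TMM and tested in edgeR 4.0.16 (R 4.3.3) with the quasi-likelihood test on 4 group means over all 14 samples. P-values were adjusted by Benjamini-Hochberg over 26626 genes, and an adjusted p under 0.05 was called. The SE of a log2 fold change was derived from its F statistic. Levels between genes were compared as TPM, computed from the counts and the union exon length of GENCODE vM21. Differences between cyclins within samples were tested by two-sided exact permutation. Alternatives were DESeq2 1.42.0, limma 3.58.1 with quality weights, other scalings, filters, groups and prior counts, a replicate block and leaving out samples. All members were named, together with up to 4 called genes per list with the largest day 3 change, 8 fixed CDK, inhibitor, E2F and pocket protein genes, and the 3 genes most like each of 5 members, of which 1 is not reported here. The fitting code was checked on simulated counts.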

Additional observations from a re-analysis of the deposited data

Results flagged for a closer look

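Among 42 groups of 4 values examined for a sample standing apart (10 genes and 4 differences between cyclins, in the 3 groups of 4 samples), 1 was found, where chance gives about 1 in 20. This was Ccnd3 in day 7 replicate 3, at 88.2 CPM, with the other day 7 samples between 15.6 and 23.2 CPM.

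The difference from healthy LSECs was not the same at each time point, by the test of one time point against another, for several members. Between day 1 and day 3 these were Ccne1 (2.46 on the log2 scale), Ccne2 (2.14), Ccna2 (2.29), Ccnb2 (2.94), E2f1 (3.25) and E2f8 (4.35). Between day 3 and day 7 they were Ccne1 (-1.56) and Ccne2 (-1.52).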

How the results depend on the processing

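Of the 10 members at day 3 against healthy, Ccne1 and E2f1 were called in all 18 alternatives, Ccnb1 and E2f8 in 13, Ccna2 in 9, Ccnb2 in 8 and Ccne2 in 7, always in the higher direction. The cause of the differences given here was not tested. Counts follow in the order day 1, day 3 and day 7 against healthy, day 3 against day 1 and day 7 against day 3. The main counts of genes called were 1080, 1915, 846, 676 and 472, and of members 1, 7, 0, 6 and 2. DESeq2 called 2744, 3633, 2602, 2313 and 1663 genes and 4, 7, 1, 9 and 3 members. Limma called 4308, 7265, 7047, 3344 and 6002 genes and 3, 5, 2, 8 and 1 members. Fits of only the 2 groups compared called 2327, 1108, 3156, 189 and 1 genes and 2, 3, 3, 1 and 0 members. After group means were taken out, 0 of 18 same-numbered pairs of samples had a correlation over 0.1 (-0.232 to 0.0962). With so few samples per group, this cannot show whether the replicate numbers pair the samples. The replicate block called 594, 1385, 435, 311 and 244 genes and 0, 5, 0, 2 and 0 members. For the differences between cyclins, the replicate block left the values as they were, and since 4 pairs cannot give a p below 0.125, it says nothing of their stability.

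Leaving out 1 sample gave 164 to 810, 946 to 3314, 193 to 1509, 49 to 915 and 26 to 1652 genes called, and 0 to 1, 2 to 7, 0, 0 to 8 and 0 to 3 members. With library size only, day 7 against day 3 had 287 genes and 0 members called, and the share of calls that were higher was 75.1% (main 64.2%) at day 3 and 86.8% (main 68.8%) at day 7 against healthy. With no filter on low counts, 4 members were called at day 3, and from day 3 to day 7 157 genes and 0 members. RLE size factors left 1 member from day 3 to day 7. In analyses chosen after seeing the data, leaving out day 3 replicates 3 and 4 gave 6245 genes and 2 members at day 3 against healthy, 2784 genes against day 1, and 6133 genes and 0 members from day 3 to day 7, and leaving out replicates 1 and 2 gave 1923 genes against day 1 and 4 members from day 3 to day 7.

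Changes of sign touched differences that were not called. For Ccnd1 at day 3 they were -0.49 without replicates 3 and 4 and -0.37 with limma (-0.089 to 0.54 without 1 sample). For Ccnd1 from day 3 to day 7 they were 0.056 with 10 counts required in every sample, 0.75 without day 3 replicates 3 and 4, 0.37 with limma, 0.0045 without a filter and 0.0018 with the block (-0.26 to 0.35 without 1 sample). For Ccnd3 they were -0.23 without day 3 replicates 3 and 4 and -0.0026 with limma from day 1 to day 3, 0.086 without replicates 1 and 2 at day 3 (-0.97 to 0.34 without 1 sample), and -0.24 without day 3 replicates 1 and 2 and -0.011 with the block from day 3 to day 7 (-0.57 to 0.79 without 1 sample). Ccne1 at day 1 was 0.10 with the block (-0.21 to 0.11 without 1 sample), and Ccne2 at day 7 was 0.0060 with 10 counts required in every sample (-0.16 to 0.034). Without 1 sample the sign also varied for Ccnb1 at day 1 (-1.25 to 0.16), Ccnd1 at day 7 (-0.057 to 0.42), Ccnd3 at day 7 (-1.01 to 0.57) and Ccna2 minus Ccne1 at day 7 (-0.40 to 0.073). The 2 day 1 samples and the spread at day 3 limit what can be called.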
